A study of Homo sapiens with 6 samples.

Results

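The 39 genes described here encode the machinery that copies DNA and the enzymes that make its deoxynucleotides, from the origin recognition and MCM helicase subunits to ribonucleotide reductase and thymidylate synthase. They were chosen by name, and their rows were found in the deposited table through the Ensembl IDs that GENCODE 29 pairs with the listed symbols. All 39 were found among 58381 gene IDs, and all 39 passed the limit of a mean of at least 10 normalized counts that left 16047 genes for testing. The study measured RNA in MCF10AT1, a premalignant cell line of human mammary epithelium that was derived from MCF10A through HRAS transformation and passage in mice. By flow cytometry for 2 surface proteins, cells low in CD24 and high in CD44 (3 libraries, called CD24low here) were separated from cells high in CD24 and positive for CD44 (3 libraries, CD24high). Both fractions came from this 1 line, carry the same HRAS background and shared 1 culture medium (DMEM/F12 supplemented with horse serum, insulin, EGF, cholera toxin and hydrocortisone); no drug or other treatment is labelled. The submitters' column names call the CD24low fraction CSC and the CD24high fraction Bulk, and the labels do not say whether the second was a narrow gate or all remaining cells. The title of the series is about RUNX control of stem-like breast cancer cells, and the question here is whether the replication program differs between the CD24low and CD24high cells.

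DNA replication is licensed in G1 phase, when the origin recognition complex, CDC6 and CDT1 load the MCM2-7 ring onto DNA. At the start of S phase CDC45 and GINS turn that ring into the active helicase, after which primase, the replicative polymerases, the sliding clamp PCNA and its loader RFC copy both strands. Most of these genes are transcribed under E2F factors, which the retinoblastoma protein restrains until cyclin E and its kinase partner act. A cell population with more cells in late G1 and S phase therefore holds more of these transcripts, which is why they serve as a proliferation signature in breast epithelium. In RNA from bulk sorted cells, fewer cells in S phase and less of each transcript per cell cannot be told apart.

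The promoters of these genes are shown first, because E2F-type words, which the choice of genes did not use, stood in 20 of the 34 genes with a promoter window. RefSeq promoter windows on GRCh38.p14 run from 250 bases before to 50 bases after the transcript start; 34 of the 39 genes had at least 1 window, and CCNE2, GINS4, MCM4, MCM5 and RPA2 had none. The words TTTCGCGC and TTTGGCGC, each searched on both strands, stood in 12 of the 34 genes (35.3%), against 1.15% of all 35116 windows. With TTTCCCGC and TTTGCCGC, which were added after the first search, 20 of the 34 genes (58.8%) held at least 1 of the 4 words, against 3.31% of all windows. Some matches overlap, since TTTCGCGC and the complement of TTTGGCGC can share bases. CCAAT, the word bound by NF-Y, stood in 21 of the 34 genes (61.8%), against 34.6% of all windows. The words TTTGAA and TTCGAA, known from promoters of genes that peak in G2 and mitosis, stood in 1 gene each, RRM1 and MCM6, against 15.2% and 1.45% of all windows. A gene can have several windows and so more chances of a match. Counted by window, the 2 E2F-type words searched first stood in 27.3% of the 44 windows of these genes. Any of the 4 stood in 47.7% of them, and CCAAT in 61.4%. The windows of all genes were not matched to these on base composition or expression, and the part of either in the shares was not tested. A match is a string of letters, not a measured binding site. The 4 windows below are those of TYMS, the gene with the largest difference between the fractions, GINS1, the gene with the most negative difference, and MCM2 and MCM6, in which E2F-type words on opposite strands overlap. They are written 5′ to 3′ on the strand of the gene, with E2F-type words in capitals:
TYMS (chr18:657403-657702, plus strand): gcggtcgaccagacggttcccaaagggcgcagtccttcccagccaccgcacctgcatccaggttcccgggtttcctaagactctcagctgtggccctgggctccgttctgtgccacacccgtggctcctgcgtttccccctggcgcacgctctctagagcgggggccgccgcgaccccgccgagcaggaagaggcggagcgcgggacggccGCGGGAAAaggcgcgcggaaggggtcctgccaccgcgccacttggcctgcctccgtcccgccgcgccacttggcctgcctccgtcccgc
GINS1 (chr20:25407423-25407722, plus strand): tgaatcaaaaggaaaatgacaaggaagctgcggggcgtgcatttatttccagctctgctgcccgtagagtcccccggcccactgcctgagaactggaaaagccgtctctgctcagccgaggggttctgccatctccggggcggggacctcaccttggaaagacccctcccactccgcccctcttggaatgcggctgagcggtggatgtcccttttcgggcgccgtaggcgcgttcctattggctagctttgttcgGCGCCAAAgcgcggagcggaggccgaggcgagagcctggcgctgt
MCM2 (chr3:127598161-127598460, plus strand): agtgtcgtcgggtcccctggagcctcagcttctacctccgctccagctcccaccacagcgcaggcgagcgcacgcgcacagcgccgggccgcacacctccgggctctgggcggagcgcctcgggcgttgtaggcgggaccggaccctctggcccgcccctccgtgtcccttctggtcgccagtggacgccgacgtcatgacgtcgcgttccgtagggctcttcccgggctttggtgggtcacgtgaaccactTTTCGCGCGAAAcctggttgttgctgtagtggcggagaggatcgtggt
MCM6 (chr2:135876394-135876693, minus strand): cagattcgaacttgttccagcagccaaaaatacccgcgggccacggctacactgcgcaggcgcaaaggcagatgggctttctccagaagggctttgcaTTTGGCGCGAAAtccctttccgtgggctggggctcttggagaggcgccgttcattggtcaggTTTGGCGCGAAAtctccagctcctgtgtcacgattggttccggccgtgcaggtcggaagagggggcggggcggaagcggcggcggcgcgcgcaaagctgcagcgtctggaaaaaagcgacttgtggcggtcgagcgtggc

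In the window of TYMS the single word was TTTCCCGC on the opposite strand, 39 bases before the start, and in that of GINS1 it was TTTGGCGC on the opposite strand, within the first 50 transcribed bases. MCM2 had TTTCGCGC on both strands just after its start. MCM6 had 2 copies of TTTGGCGC, at 152 and 90 bases before its start, each overlapped by TTTCGCGC on the opposite strand.

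Some properties of the libraries bear on every value. Reads recovered from the deposited values came to 16691162 to 27293177 per library, with CD24high replicate 3 the shallowest, and the least counted of the 39 genes still had 137 reads in its lowest library. Genes of rRNA type took 1.97% to 7.15% of the reads in CD24low and 1.30% to 10.2% in CD24high libraries. The high shares fell in CD24low replicates 1 and 2 and CD24high replicate 3, so values are also given within libraries of low share (CD24low replicate 3 against CD24high replicates 1 and 2) and of high share (CD24low replicates 1 and 2 against CD24high replicate 3). Each of these sets has 1 library on a side and was not tested. CD24 RNA stood at 588, 329 and 1370 normalized counts in CD24low replicates 1, 2 and 3, against 4043, 2325 and 5687 in CD24high replicates 1, 2 and 3, so the CD24 values of the groups did not overlap (log2 difference -2.55, limma adjusted p = 0.084, DESeq2 adjusted p = 0.027). CD44 RNA differed by -0.17 (limma adjusted p = 0.56). The 8 epithelial markers (CDH1, EPCAM, TP63 and 5 keratins) were all detected, with sums of 69576 to 104081 normalized counts in CD24low and 99881 to 127260 in CD24high libraries. The sum of 8 fibroblast or mesenchymal markers was 15389 to 54752 in CD24low and 3770 to 7233 in CD24high libraries. Of 5 leukocyte and endothelial markers CD3E had no read, and the sum of all 5 was 175 to 459 in CD24low and 147 to 440 in CD24high libraries.

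No gene of the replication machinery was called different between the fractions by limma. Of the 39 genes, 0 rose and 0 fell at an adjusted p of 0.05, where the background over all 16047 genes was 0% in each direction. At an unadjusted p below 0.05, 1 of 39 genes was higher in CD24low and 0 were lower, where the shares over all genes tested were 6.34% and 7.15%. The share in either direction was 13.5% over all genes. DESeq2 called TYMS, 1 of the 39, higher (background 1.36%) and called 0 lower (background 1.15%). The quasi-likelihood test of edgeR called 0 of the 39 (background 0%). With the replicate number of the titles added to the limma fit, 0 of the 39 were called, beside 2.16% higher and 2.3% lower over all genes. The median log2 difference of the 39 genes, CD24low minus CD24high, was -0.03, beside -0.01 over all genes tested. A difference above 0 was seen for 17 of 39 genes (43.6%), beside 49.0% of all genes. The groups overlapped for 38 of the 39, and TYMS alone had all CD24low libraries above all CD24high libraries (1 of 39 higher without overlap, background 10.2%; 0 of 39 lower, background 9.32%).

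The intervals show how large a difference these 6 libraries leave possible. For 38 of the 39 genes the 95% interval of the log2 difference included 0, and the intervals of these 38 lay between -0.74 and 0.64, a fold of 0.598 to 1.56. All 39 intervals lay within 1 log2 unit of 0, as did 79.5% of those over all genes tested, and 25 of 39 lay within 0.5, as did 40.4% over all genes. The p-values rest on the spread between libraries, since no label says that replicates came from separate cultures.

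**Figure D1:**
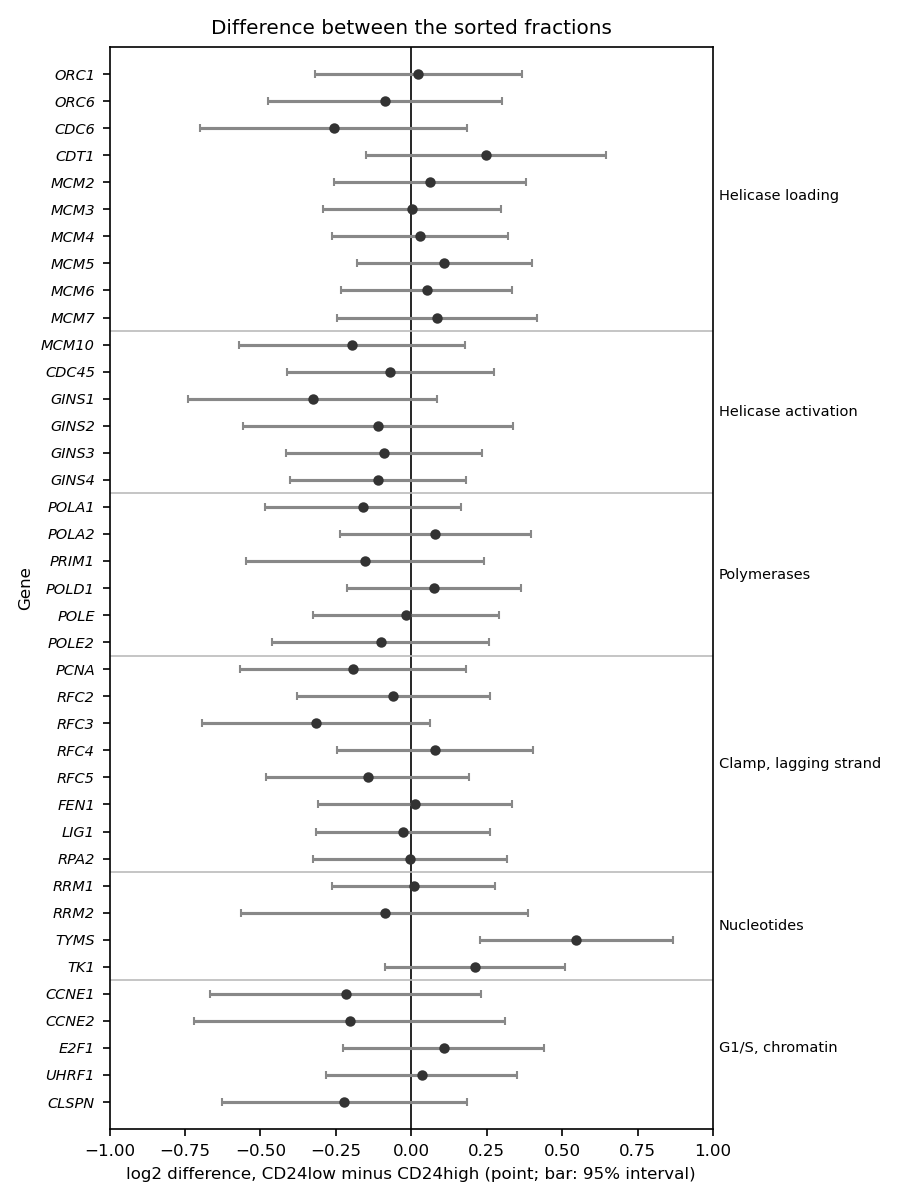
Each point is the log2 difference of 1 gene, CD24low minus CD24high, in log2 units after adding 1 to each normalized count, and each bar is its 95% interval from limma (n = 3 libraries a group); genes run down the page by role. The interval of TYMS (0.23 to 0.87) lies above 0, and the other 38 intervals include 0.

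The summed level of the 39 genes averaged nearly the same in both fractions. The sum was 80385, 60500 and 81408 normalized counts in CD24low replicates 1, 2 and 3, against 78003, 68574 and 75868 in CD24high replicates 1, 2 and 3. Its mean was 74098 ± 11787 in CD24low and 74148 ± 4944 in CD24high cells (SD, n = 3 each), a ratio of 0.999. CD24low replicate 2 held the lowest sum of all 6 libraries, and CD24high replicate 2 the lowest of its group.

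CD24low replicate 2 was the lowest library for most of these genes. It held the lowest of the 6 values for 32 of 39 genes (82.1%), beside 26.3% of all genes tested, and the lowest of the 3 CD24low values for 37 of 39 (94.9%), beside 40.2%. It held the highest of the 6 values for 0 of 39, beside 23.7% of all genes. Within CD24high, replicate 2 was lowest for 27 of 39 (69.2%), beside 26.7%, and it was the lowest of all 6 for 3 of 39, beside 10.1%, and the highest for 0, beside 8.06%. The highest value fell in CD24low replicate 3 for 14 of 39, beside 13.2%, and in CD24high replicate 1 for 16 of 39, beside 26.8%. The median deviation of the 39 genes from their own mean over 6 libraries was 0.10, -0.29 and 0.15 log2 units in CD24low replicates 1, 2 and 3, against 0.08, -0.07 and 0.04 in CD24high replicates 1, 2 and 3. Over all genes tested the same medians lay between -0.01 and 0.01 in every library. CD24low replicate 2 also had the lowest CD24 value and the highest sum of mesenchymal markers given above, and it lay farthest to the CD24low side on the first principal component of all genes (55.0, beside 22.9 and 3.83 for the other CD24low libraries). The part of these features in the low replication level was not tested.

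**Figure D2:**
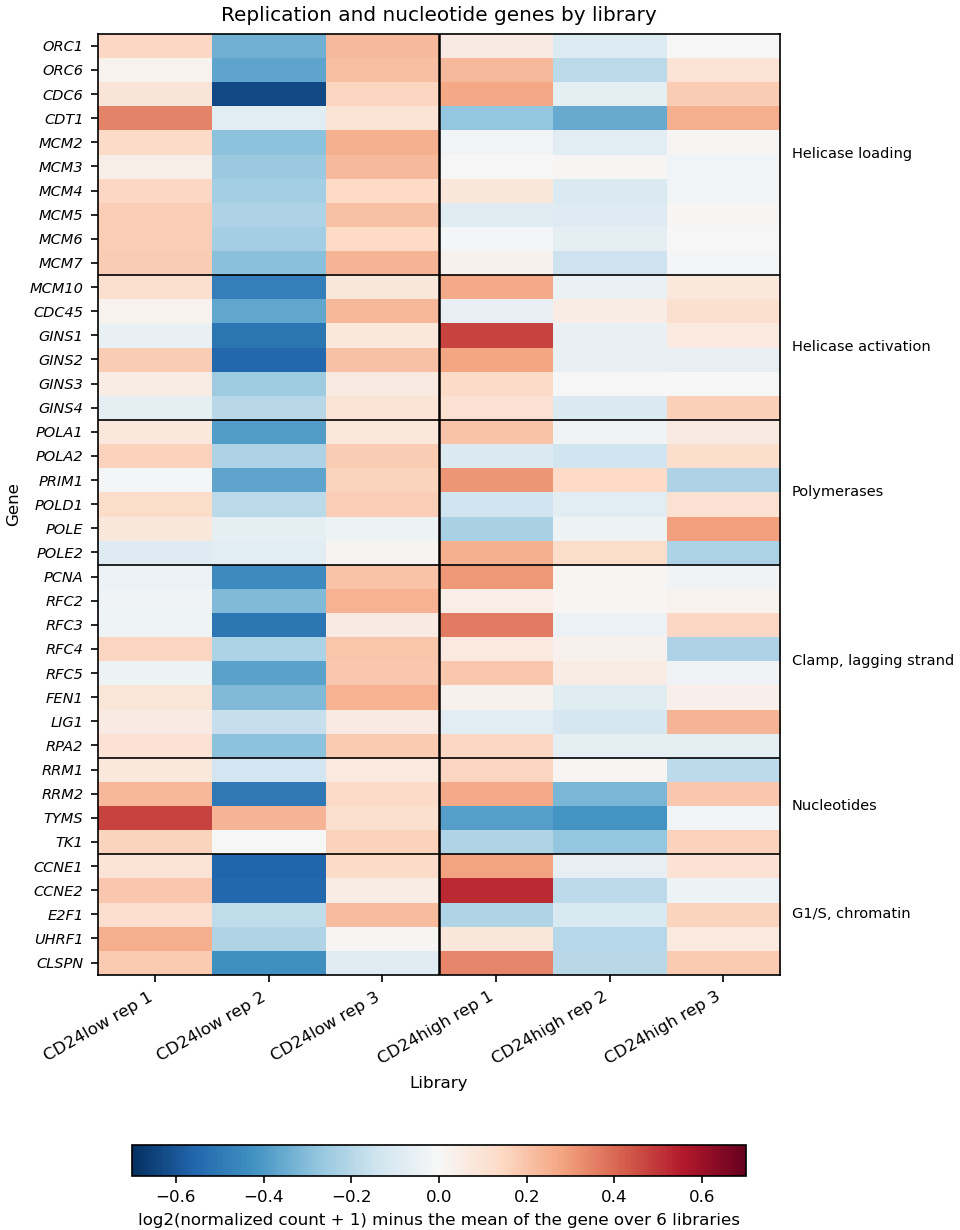
Rows are the 39 genes by role and columns the 6 libraries; color is log2 (normalized count + 1) minus the mean of the gene over the 6 libraries. CD24low replicate 2 is the lowest column for 32 of the 39 rows, and TYMS is the row whose CD24low values all lie above its CD24high values.

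**Figure D3:**
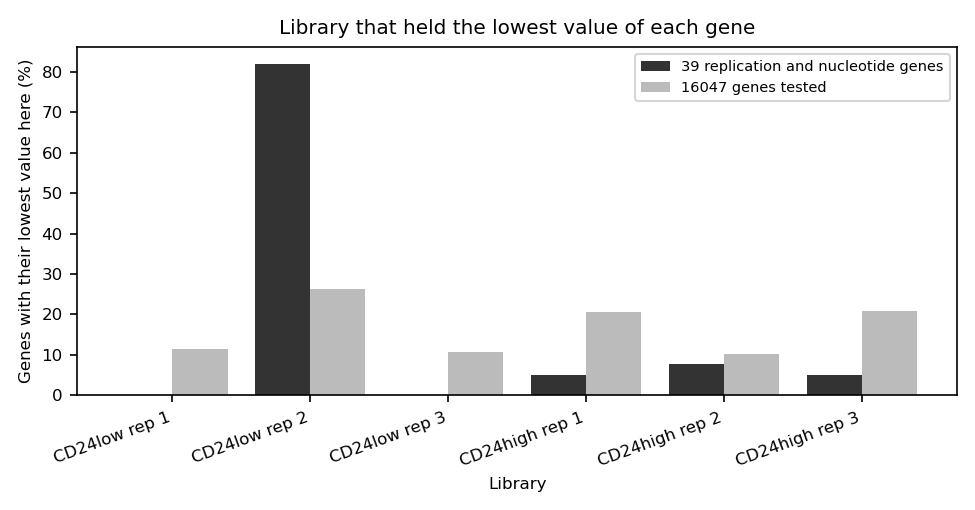
Bars give the percent of genes whose lowest value fell in each library, for the 39 replication and nucleotide genes (dark) and the 16047 genes tested (light). The dark bar of CD24low replicate 2 stands at 82.1% and its light bar at 26.3%, while CD24low replicates 1 and 3 were lowest for 0 of the 39.

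The sign of the median depended on which libraries were compared. Without CD24low replicate 2 the median difference was 0.09 and 29 of 39 genes were above 0, and without CD24low replicate 3 it was -0.11 with 9 of 39 above 0. Among the low-share libraries it was 0.14 with 29 of 39 genes above 0, and among the high-share libraries it was -0.15 with 5 of 39 above 0. No gene of the 39 was called by limma with any 1 library left out.

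Of the genes that load the helicase, 8 of 10 had differences above 0, and none passed the test. That count rested on single libraries: it was 2 of 10 without CD24low replicate 3, 4 of 10 without CD24low replicate 1 and 9 of 10 without CD24low replicate 2. Among the low-share libraries 10 of 10 were above 0 (median 0.23), and among the high-share libraries 0 of 10 (median -0.09). MCM2, a subunit of the ring that also binds histones, had 3824, 2857 and 4141 normalized counts in CD24low replicates 1, 2 and 3, against 3437, 3299 and 3508 in CD24high replicates 1, 2 and 3. Both the highest and the lowest of these values were CD24low libraries, so the CD24high range lay inside that of CD24low. The difference was 0.06 (95% interval -0.26 to 0.38, limma adjusted p = 0.88). MCM7, whose gene also hosts a microRNA cluster in an intron, had 6140, 4440 and 6409 normalized counts in CD24low, against 5547, 4908 and 5392 in CD24high libraries (difference 0.08). MCM5 had the largest difference of the ring, with 3178, 2432 and 3255 in CD24low against 2664, 2647 and 2842 in CD24high libraries (0.11, interval -0.18 to 0.40). Thus 2 of the 3 CD24low libraries lay above all CD24high libraries for MCM2, MCM5 and MCM7, and CD24low replicate 2 lay below them. MCM3, MCM4 and MCM6 showed the same order of the CD24low libraries against the CD24high libraries and had differences of 0.00, 0.03 and 0.05.

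The 6 subunits of the ring held nearly fixed shares of their sum within each library, which no scaling of libraries can alter. Per kilobase of annotated exon, MCM7 made up 24.1% to 25.4% of the sum in CD24low and 23.5% to 24.9% in CD24high libraries. The share of MCM3 was 22.3% to 24.0% in CD24low and 23.5% to 25.1% in CD24high libraries. MCM5 made up the smallest share, 7.65% to 7.89% in CD24low and 7.16% to 7.74% in CD24high libraries. The annotated exons of a gene include all its transcripts, so a level per kilobase understates genes with long, rarely used exons.

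Among the loading factors, CDC6 and CDT1 differed in opposite directions, neither past the test. CDC6, the ATPase that brings the ring to the origin, had 2003, 1215 and 2089 normalized counts in CD24low replicates 1, 2 and 3, against 2269, 1803 and 2125 in CD24high replicates 1, 2 and 3 (difference -0.26, SE 0.20, limma adjusted p = 0.60). Its low mean in CD24low rested on replicate 2: without that library the difference was -0.01. CDT1, the loading factor that geminin inhibits, had 1019, 760 and 855 normalized counts in CD24low, against 662, 626 and 956 in CD24high libraries (0.25, SE 0.18, adjusted p = 0.58). The CDT1 groups overlapped through CD24high replicate 3, and its difference was 0.41 among the low-share and -0.12 among the high-share libraries. ORC1 and ORC6, subunits of the origin recognition complex, had 991, 709 and 1046 and 577, 438 and 657 normalized counts in the CD24low libraries, against 933, 837 and 896 and 664, 497 and 606 in the CD24high libraries, with differences of 0.02 and -0.09.

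All 6 genes that turn the loaded ring into a helicase had differences below 0, and none passed the test; without CD24low replicate 2 the count below 0 was 3 of 6. GINS1, a subunit of the GINS tetramer, had the most negative difference of the 39: 653, 476 and 712 normalized counts in CD24low replicates 1, 2 and 3, against 942, 654 and 710 in CD24high replicates 1, 2 and 3. The single high value was CD24high replicate 1, and the other CD24high values lay among the CD24low values. The difference was -0.33 (interval -0.74 to 0.09, limma adjusted p = 0.47), -0.15 without CD24low replicate 2 and -0.17 without CD24high replicate 1. GINS2 had 1134, 684 and 1156 in CD24low, against 1212, 966 and 964 in CD24high libraries (-0.11). GINS3 and GINS4, the other subunits, had differences of -0.09 and -0.11, and GINS3 was the least abundant of the 39 per kilobase, at 49.8 ± 5.86 normalized counts in CD24low and 52.8 ± 2.84 in CD24high cells. CDC45, the helicase cofactor, had 935, 716 and 1081 in CD24low, against 884, 952 and 997 in CD24high libraries (-0.07). MCM10, which helps to start the helicase, had 1290, 856 and 1262 in CD24low, against 1436, 1158 and 1258 in CD24high libraries (-0.20). Each of the 6 genes had its lowest value in CD24low replicate 2, and the median of the 6 was 0.04 among the low-share and -0.27 among the high-share libraries.

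The polymerases and primase had differences from -0.16 (POLA1) to 0.08 (POLA2), with 2 of 6 above 0. POLE, the catalytic subunit of the leading-strand polymerase, had 2607, 2353 and 2410 normalized counts in CD24low replicates 1, 2 and 3, against 2113, 2406 and 3019 in CD24high replicates 1, 2 and 3 (difference -0.02, interval -0.33 to 0.29). Like POLE2, given next, POLE was an exception to the library pattern, since its lowest and highest values were both CD24high libraries. POLE2, the accessory subunit of the same enzyme, was steadiest in CD24low with 219, 222 and 237, against 278, 256 and 200 in CD24high libraries (-0.10). POLD1, the catalytic subunit of the lagging-strand polymerase, had 2045, 1646 and 2110 in CD24low, against 1700, 1770 and 2016 in CD24high libraries (0.08). PRIM1, the catalytic primase subunit, had 587, 459 and 661 in CD24low, against 734, 654 and 510 in CD24high libraries (-0.15). For POLE2 and PRIM1 the values of CD24high replicate 3 were the lowest of their group, while for POLE and POLD1 that library was the highest of its group.

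Clamp and lagging-strand genes had differences between -0.31 and 0.08, and all 8 were lowest in CD24low replicate 2. PCNA, the sliding clamp, was the most abundant of the 39 per kilobase, at 3073 ± 670 normalized counts in CD24low and 3472 ± 443 in CD24high cells (SD, n = 3 each). Its counts were 4620, 3488 and 5452 in CD24low replicates 1, 2 and 3, against 5855, 4801 and 4664 in CD24high replicates 1, 2 and 3, and its difference was -0.19 (interval -0.57 to 0.18, limma adjusted p = 0.65). RFC3, a small subunit of the clamp loader, had 833, 599 and 885 in CD24low, against 1094, 826 and 941 in CD24high libraries. Its groups overlapped only through CD24high replicate 2, the difference was -0.31 (interval -0.69 to 0.06, adjusted p = 0.45), and without CD24low replicate 2 it was -0.14. The other loader subunits did not share that size of difference: RFC2, RFC4 and RFC5 differed by -0.06, 0.08 and -0.14. FEN1, the flap nuclease that trims Okazaki fragments, had 2457, 1867 and 2744 in CD24low, against 2362, 2186 and 2376 in CD24high libraries (0.01, interval -0.31 to 0.33). LIG1, the ligase that joins the fragments, had 1581, 1355 and 1582 in CD24low, against 1437, 1396 and 1791 in CD24high libraries (-0.03). RPA2, a subunit of the single-strand binding complex, had 991, 756 and 1046 in CD24low, against 1021, 879 and 880 in CD24high libraries, with an interval of -0.33 to 0.32.

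Among the nucleotide enzymes, TYMS had the largest difference of the 39 genes. TYMS (ENSG00000176890.15, chromosome 18, 657604 to 673578, plus strand, hg38) encodes thymidylate synthase, which makes the thymidine nucleotide from its uridine precursor and is the target of fluorouracil. It had 2086, 1773 and 1628 normalized counts in CD24low replicates 1, 2 and 3, against 1152, 1126 and 1486 in CD24high replicates 1, 2 and 3. All 3 CD24low libraries lay above all 3 CD24high libraries, with CD24high replicate 3 nearest to them. The mean was 1829 ± 234 in CD24low and 1255 ± 201 in CD24high cells (SD, n = 3 each), a fold of 1.46 (interval 1.17 to 1.82) and a log2 difference of 0.55 (SE 0.14). Adjusted over all genes, p was 0.17 in limma and 0.20 in edgeR, so TYMS did not pass there, while DESeq2's adjusted p was 0.036. The DESeq2 call was lost without CD24low replicate 2 (adjusted p = 0.16), while the DESeq2 log2 difference was 0.56 there, beside 0.54 with all libraries. Leaving out single libraries gave limma differences between 0.45, when CD24low replicate 1 was dropped, and 0.68, when CD24high replicate 3 was dropped, and by rRNA share it was 0.51 among the low-share libraries and 0.37 among the high-share ones.

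The low values of CD24low replicate 2 did not extend to TYMS, whose lowest library was CD24high replicate 2. Its share of the summed counts of the 39 genes was 2.60%, 2.93% and 2.00% in CD24low replicates 1, 2 and 3, against 1.48%, 1.64% and 1.96% in CD24high replicates 1, 2 and 3. The share was highest in CD24low replicate 2, the library where the sum was lowest, and CD24low replicate 3 and CD24high replicate 3 were nearly level. The annotation places exons of ENOSF1 on the opposite strand over 39.1% of the annotated exon bases of TYMS. ENOSF1 had 643, 643 and 635 normalized counts in CD24low replicates 1, 2 and 3, against 727, 738 and 771 in CD24high replicates 1, 2 and 3. The log2 difference was -0.22 (limma adjusted p = 0.40). Its CD24low values all lay below its CD24high values, as for 9.32% of all genes tested. A link between the differences of the 2 genes was not tested. The library kit keeps strand, but the strand setting of the authors' counting is not given in the sources used here, and without strand the reads of the pair cannot be told apart.

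The other nucleotide genes of the 39 did not pass any of the 3 tests. TK1, thymidine kinase, which salvages thymidine, had 1671, 1496 and 1673 normalized counts in CD24low replicates 1, 2 and 3, against 1296, 1244 and 1676 in CD24high replicates 1, 2 and 3. Here CD24high replicate 3 reached the CD24low level while the other CD24high libraries lay below every CD24low library. The difference was 0.21 (interval -0.09 to 0.51, limma adjusted p = 0.53), with 0.40 among the low-share and -0.08 among the high-share libraries. The subunits of ribonucleotide reductase, which makes deoxynucleotides from ribonucleotides, were level on average. RRM1, the large subunit, had 3906, 3380 and 3883 in CD24low, against 4120, 3747 and 3269 in CD24high libraries (0.01, interval -0.26 to 0.28). RRM2, the small subunit whose level follows S phase, had 6805, 4089 and 6340 in CD24low, against 6947, 4625 and 6591 in CD24high libraries (-0.09, interval -0.56 to 0.39). In both fractions replicate 2 was the lowest for RRM2, and the ratio of RRM2 to RRM1 per kilobase was 1.37, 0.949 and 1.28 in CD24low replicates 1, 2 and 3, against 1.32, 0.969 and 1.58 in CD24high replicates 1, 2 and 3. Another annotated gene on the same strand, AC007240.1, shares 20.2% of the exon bases of RRM2 and averaged 2907 normalized counts, so the count of RRM2 is uncertain by how shared reads were assigned.

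**Figure D4:**
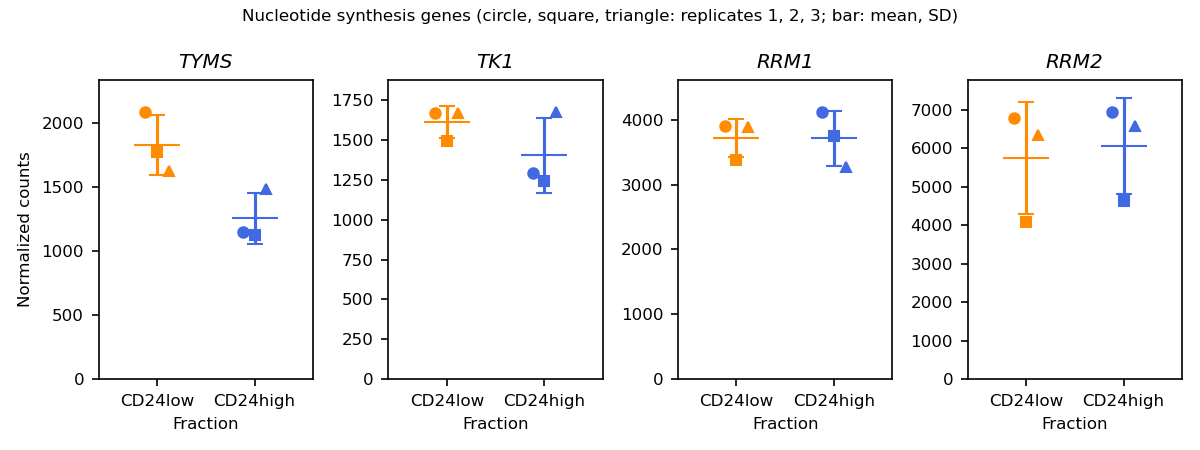
Normalized counts of TYMS, TK1, RRM1 and RRM2 in the 3 CD24low and 3 CD24high libraries; symbols mark replicates, horizontal marks the mean and error bars the SD. The 3 CD24low values of TYMS (1628 to 2086) lie above its CD24high values (1126 to 1486), and the groups overlap for the other 3 genes.

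None of the 5 regulators of the G1 to S transition, S phase chromatin and the checkpoint passed the test, and 2 of 5 had differences above 0. CCNE1 and CCNE2 encode the E cyclins that drive S phase entry. CCNE1 had 302, 192 and 311 normalized counts in CD24low replicates 1, 2 and 3, against 344, 272 and 304 in CD24high replicates 1, 2 and 3 (difference -0.22, limma adjusted p = 0.67). CCNE2 had the widest range of the 39, 2.11-fold between its highest and lowest library, with 534, 320 and 485 in CD24low against 674, 412 and 457 in CD24high libraries (-0.20, adjusted p = 0.74). Exons of INTS8 on the opposite strand cover 37.0% of the exon bases of CCNE2. E2F1, the activating factor of this gene set, had 648, 528 and 695 in CD24low, against 516, 555 and 665 in CD24high libraries (0.11, interval -0.22 to 0.44). CLSPN, which encodes the checkpoint adaptor claspin, had 1424, 932 and 1184 in CD24low, against 1593, 1099 and 1425 in CD24high libraries (-0.22). UHRF1, which brings the maintenance DNA methyltransferase to replicated DNA, had 5634, 4079 and 4758 in CD24low, against 4988, 4118 and 4961 in CD24high libraries (0.03). In both fractions the replicate 2 library held the lowest value for CCNE1, CCNE2, CLSPN and UHRF1.

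**Figure D5:**
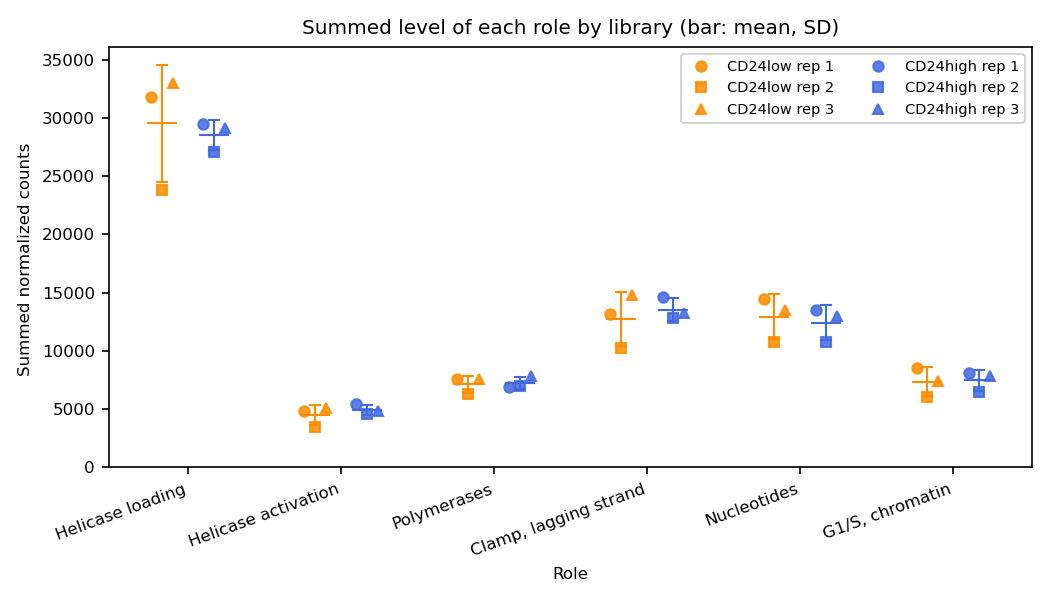
Points are the summed normalized counts of the genes of each role in the 3 CD24low (orange) and 3 CD24high (blue) libraries; horizontal marks show the mean and error bars the SD. The groups overlap for each of the 6 roles, and CD24low replicate 2 is the lowest library in each (for example 23793 for helicase loading, beside 27092 to 33032 in the other 5 libraries).

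Gene by gene, the median spread of these genes within groups was near that over all genes tested, which were not matched on level. Such a spread does not show shifts that genes share, such as the low values in CD24low replicate 2. The median SD within groups was 0.20 log2 units for the 39 genes and 0.21 for all genes tested. Between the highest and the lowest of the 6 libraries the 39 genes differed by 1.26-fold (RRM1) to 2.11-fold (CCNE2), with a median of 1.47, beside 1.51 over all genes.

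Other genes of the same pathways also gave no call in limma, which called 0% of all genes in each direction. Of 34 other replication genes 0 passed in either direction in limma, DESeq2 or edgeR (background in edgeR 0%, in DESeq2 1.36% higher and 1.15% lower). At an unadjusted p below 0.05 in limma 0 of the 34 passed, beside 13.5% of all genes in either direction. The median difference of the 34 was -0.06, and 22 of 34 (64.7%) were lowest in CD24low replicate 2, beside 26.3% of all genes. The pair with the smallest p were TIMELESS, a fork protection factor (0.24), and DNA2, a nuclease-helicase of Okazaki fragments (-0.38). Of 35 other nucleotide genes 0 passed in limma and edgeR (median 0.00; at an unadjusted p below 0.05 in limma 1 was higher and 1 lower), while DESeq2 called 1 higher. That gene was PFAS, an enzyme of purine synthesis, with 1771, 1422 and 1384 normalized counts in CD24low, against 1146, 1044 and 1048 in CD24high libraries (difference 0.49, limma adjusted p = 0.16, DESeq2 adjusted p = 0.027). RRM2B, the p53-induced reductase subunit, had 1054, 1172 and 1132 in CD24low, against 1797, 1426 and 1252 in CD24high libraries (-0.40, limma adjusted p = 0.27). The groups did not overlap for either gene, as for 10.2% of all genes in the higher and 9.32% in the lower direction. Both genes were named for having the smallest p of their list.

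Lists of E2F partners, chromatin assembly, checkpoint and mitosis genes likewise held 0 calls in limma, DESeq2 and edgeR. Over all genes limma and edgeR also called 0%, and DESeq2 1.36% higher and 1.15% lower, so 0 calls lay near the background. At an unadjusted p below 0.05 in limma, each of the first 3 lists had 1 gene lower in CD24low and 0 higher. The mitosis list had 1 higher and 1 lower. The unadjusted shares over all genes tested were 6.34% higher and 7.15% lower. Of 19 E2F, RB and S phase kinase genes the median was -0.12, with LIN54, a DREAM complex subunit, at -0.32 and FBXW7, which marks cyclin E for destruction, at -0.25. Of 11 S phase chromatin genes the median was -0.06, with HELLS, a chromatin remodeler, at -0.39 and ZNF367 at -0.42; 10 of 11 (90.9%) were lowest in CD24low replicate 2. Of 12 checkpoint genes the median was -0.12, with WEE1, the kinase that holds CDK1 inactive, at -0.26 and ATRIP, the partner of ATR, at 0.22. Of 24 genes of G2 and mitosis the median was 0.00, with the kinesins KIF20A at 0.27 and CENPE at -0.33, and 11 of 24 (45.8%) were lowest in CD24low replicate 2. The summed level of the mitosis genes was 73700, 66267 and 77365 normalized counts in CD24low replicates 1, 2 and 3, against 75537, 67889 and 72944 in CD24high replicates 1, 2 and 3. As for the replication genes, replicate 2 held the lowest sum in each fraction.

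Over all 6 libraries, markers of cell identity had larger differences than the replication genes. DESeq2 called 2 of 8 epithelial markers lower and 4 of 5 tested mesenchymal markers higher in CD24low. Over all genes its shares were 1.15% lower and 1.36% higher. Limma and edgeR called 0 of either, and 0% of all genes. At an unadjusted p below 0.05 in limma, 5 epithelial markers were lower and 4 mesenchymal markers higher. The shares over all genes were 7.15% lower and 6.34% higher. The mesenchymal repressor ZEB2 had 305, 655 and 215 normalized counts in CD24low, against 55.6, 75.1 and 33.6 in CD24high libraries (difference 2.73), and the adhesion protein CDH1 had 1899, 1332 and 2812 in CD24low, against 3547, 3158 and 4142 in CD24high libraries (-0.90). The matrix protein FN1 and the basal regulator TP63 differed by 2.57 and -1.29. The medians of the mesenchymal and the epithelial list were 1.98 and -0.62, beside -0.03 for the 39 replication and nucleotide genes. Among the low-share libraries the mesenchymal and epithelial medians were 0.68 and -0.15, beside 0.14 for the 39 genes, so the epithelial contrast was not seen there. Among the high-share libraries they were 3.25 and -0.95, beside -0.15. Whether these medians differ beyond the spread between libraries was not tested.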

How the data were processed

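RNA of 6 libraries (3 CD24low, 3 CD24high) was depleted of rRNA and sequenced strand-specifically, per the labels' protocols. Each deposited value is a signal, namely a gene's count after the authors scaled it by the size factor of its library, as the steps in the values show; the submitters' processing notes name DESeq2. The same notes list the aligner STAR (2.5.2), the build hg38 and R (3.5.0). How reads were counted, with which strand setting and gene models, is not stated in these sources. Whole reads were recovered by dividing each column by its smallest step; 100% of values were whole within 0.1 reads. Of 58381 IDs, 58261 matched GENCODE 29 without version.

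The main test was limma 3.58.1 (two-sided, trended variance, no term but group) on log2 of the normalized count plus 1, over 16047 genes averaging 10 normalized counts or more, with Benjamini-Hochberg adjustment at 0.05; fold changes are on that scale, which understates the change of low genes. DESeq2 1.42.0 and edgeR 4.0.16 (TMM factors) took the recovered reads of those genes in R 4.3.3, and the code was tested on simulated data. The genes, lists and tests were chosen with earlier results of these data known. The 39 genes were named by role; from each further list the members past the threshold, else the pair with the smallest p, were named, and TYMS's neighbour ENOSF1 and the genes overlapping members were added after values were seen. Replicates of a group differed by more than sampling noise in every pair.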

Additional observations from a re-analysis of the deposited data

How the results depend on the processing

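For the 39 genes 897 differences were recomputed under the alternatives. Of these, 872 moved by less than the SD within groups, 24 moved further and 1, TYMS in DESeq2, passed the threshold. That limit is loose, since the median SD was 0.20 log2 units and 35 of 39 differences were under 0.25 in size. The filter, trend and limma block settings leave a difference unchanged by construction, so the 872 is no measure of robustness. Signs of the small differences changed for up to 16 of 39 genes in a setting. No gene of the 39 was called by limma in any setting; DESeq2 called 1 higher, and 0 without CD24low replicate 2. TYMS kept a positive difference in every setting, with limma adjusted p of 0.082 to 0.42 when 1 library was left out. The median of the 39 genes ran from -0.11 to 0.09 when 1 library was left out. Over all genes the calls, 0 in either direction in the reported test, were 218 higher and 184 lower with DESeq2 (77 and 60 without CD24low replicate 2), 109 and 55 with no filter on low values, and 64 and 39 without both libraries numbered 3. When 1 library was left out they ran from 0 to 181 higher and from 0 to 185 lower, the highest without CD24low replicate 3. Calls in the further lists, 0 as reported, were 5 higher and 3 lower with DESeq2 (3 and 1 without CD24low replicate 2), 4 and 2 with no filter and without both libraries numbered 3, and 0 to 4 in each direction when 1 library was left out; the cause was not tested. Same-numbered libraries deviated together with correlations of 0.27, 0.30 and 0.05, beside -0.26 to 0.08 for differently numbered libraries. The value of 0.05 lay below the 0.08 of CD24low replicate 3 with CD24high replicate 1, and the numbers were not taken as pairs in the main test. With 3 libraries a group so small a gap cannot decide whether they are pairs, and the submitters' column names number both fractions alike. With the replicate block, limma called 347 higher and 369 lower over all genes and edgeR 345 and 360, with 5 and 5 in the further lists for either tool and 0 of the 39 genes (TYMS adjusted p = 0.052 in limma and 0.071 in edgeR). Leaving out both libraries numbered 2 or 3, and DESeq2 without CD24low replicate 2, were chosen after seeing the data. The 3 libraries a group limit the precision, as the widths of the intervals show.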
